A study of Mus musculus with 2 samples.

Results

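The genes described here were 10 effectors of the antioxidant and iron response, Srxn1, Nqo1, Hmox1, Gclm, Gclc, Txnrd1, Slc7a11, Gpx4, Fth1 and Ftl1, and they were followed across the cell classes of mouse pancreatic tumors. They were chosen by name, as textbook targets of NRF2 or as genes of iron storage and ferroptosis defence, from the 32285 genes in the files, and all 10 were listed there. The choice was made with earlier results of these data known. The shares of all genes set beside their counts are thus a description and no test. The cancer cells were KPC, a line from mouse pancreas tumors. They were injected into the pancreas of male mice, and unsorted live cells of the dissociated tumors were sequenced. A cell is a barcode with at least 500 UMIs (unique molecular identifiers, 1 per captured transcript), 200 to 5000 genes and at most 8% mitochondrial UMIs. The control was a flox tumor (MCT1 fl/fl), and the other tumor came from a mouse labelled MCT1-KO, in which the lactate transporter MCT1 (gene Slc16a1) was to be deleted by tamoxifen through Col1a2-CreERT2, a driver active in fibroblast-like cells including pancreatic stellate cells (PSCs). Before implantation mice received either tamoxifen or its corn oil vehicle, and which of them the flox mouse received is not given in the sources used here. The injected KPC cells came from a line without this driver. The number of mice behind a library is not given in the sources used here, and 1 library was made of each genotype, so genotype, animal, dissection and library cannot be told apart and no test between genotypes was possible. Every interval below is a 95% interval that covers counting error only.

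NRF2 (gene Nfe2l2) is a transcription factor that KEAP1 holds at a low level until oxidants or electrophiles modify KEAP1. It then binds antioxidant response elements with a small MAF protein, at sites that BACH1 can occupy as a repressor, and raises genes for cystine uptake, glutathione synthesis, thioredoxin recycling, heme breakdown and iron storage. Ferroptosis is cell death by iron-dependent lipid peroxidation, which glutathione and the selenoenzyme GPX4 hold back, while ferritin keeps iron in a form that does not drive it. In tumors, macrophages take up and recycle heme iron, and their Hmox1 and ferritin are known for being high.

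The response element is the sequence that NRF2 binds, so the promoter windows of the genes that held its core are shown. RefSeq windows on GRCm38.p6, running from 250 bases before to 50 bases after a transcript start, were at hand for 8 of the 10 genes (14 windows). The cores TGACNNNGC and TGAGNNNGC were searched on both strands, and 4 of the 8 genes and 4 of their 14 windows held at least 1 of them. Of all 32817 windows, 12.4% held the first form, 17.7% the second and 27.8% either, and of all 26994 genes 30.75% had a window with either. The share among the 14 windows was thus close to that among all windows. Matches are in capitals, all other bases in lower case, each written 5′ to 3′ on the strand of the gene. The windows lay at chr2:152105274-152105573 (plus strand) for Srxn1, chr3:122245307-122245606 (plus) for Gclm, chr10:82858956-82859255 (plus) for Txnrd1 and chr3:50443564-50443863 (minus) for Slc7a11.
Srxn1: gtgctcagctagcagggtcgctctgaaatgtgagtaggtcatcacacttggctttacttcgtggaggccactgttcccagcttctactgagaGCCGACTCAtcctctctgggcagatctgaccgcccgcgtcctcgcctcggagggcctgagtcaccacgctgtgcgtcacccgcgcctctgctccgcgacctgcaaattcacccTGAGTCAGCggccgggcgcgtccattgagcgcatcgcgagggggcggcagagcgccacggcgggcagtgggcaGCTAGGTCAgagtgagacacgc
Gclm: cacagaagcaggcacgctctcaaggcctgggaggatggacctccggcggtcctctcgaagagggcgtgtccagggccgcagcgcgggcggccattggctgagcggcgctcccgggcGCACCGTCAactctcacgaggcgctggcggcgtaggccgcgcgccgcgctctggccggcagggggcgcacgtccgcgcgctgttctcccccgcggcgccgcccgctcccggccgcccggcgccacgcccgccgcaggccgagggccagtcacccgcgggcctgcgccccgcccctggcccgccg
Txnrd1: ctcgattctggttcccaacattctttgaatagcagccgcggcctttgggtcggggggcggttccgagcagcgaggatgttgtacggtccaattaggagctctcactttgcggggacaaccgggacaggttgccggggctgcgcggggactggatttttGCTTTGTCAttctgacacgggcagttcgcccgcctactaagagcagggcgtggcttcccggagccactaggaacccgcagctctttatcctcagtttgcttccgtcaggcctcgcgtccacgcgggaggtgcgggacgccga
Slc7a11: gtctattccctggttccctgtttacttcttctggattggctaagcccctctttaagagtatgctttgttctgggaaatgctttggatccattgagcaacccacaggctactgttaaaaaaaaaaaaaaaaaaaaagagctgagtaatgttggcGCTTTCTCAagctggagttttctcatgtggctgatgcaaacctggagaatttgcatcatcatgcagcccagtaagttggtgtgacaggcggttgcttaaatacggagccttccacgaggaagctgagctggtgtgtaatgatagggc
The Srxn1 window held 3 matches, starting at positions -158, -45 and 28 from the transcript start. The windows of Gclm (-134), Txnrd1 (-92, in 1 of its 3 windows) and Slc7a11 (-97) held 1 each, and none was found in the windows of Nqo1, Gpx4, Fth1 and Ftl1. A match is a description of the letters and no match says nothing of sites farther away. On GRCm38 (GENCODE vM21) the gene bodies lay at chr2:152105516-152111376 for Srxn1, chr8:107388225-107403206 for Nqo1, chr8:75093621-75100589 for Hmox1, chr3:122245557-122270732 for Gclm and chr9:77754535-77794485 for Gclc. Those of the other 5 lay at chr10:82833951-82897712 for Txnrd1, chr3:49892526-50443614 for Slc7a11, chr10:80047166-80056439 for Gpx4, chr19:9980598-9985098 for Fth1 and chr7:45457944-45459884 for Ftl1.

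The flox library held 8739 kept cells with 61149689 UMIs and the library labelled PSCs-MCT1-/- 11689 with 81494894. Clusters were named from fixed markers, and 7 classes with at least 50 cells in each library were compared, tumor-like (2577 flox and 3769 other cells), macrophage/monocyte-like (2561 and 2221), neutrophil-like (757 and 708), T/NK-like (536 and 485), PSC-like (232 and 421), endothelial-like (124 and 145) and dendritic-like (117 and 106). Clusters left without a name held 1701 and 3133 cells (19.5% and 26.8%) and entered no comparison. The tumor-like name was the weakest, since only 2 of its 6 clusters had a tumor marker among their leading 10 genes, and the summed tumor markers were at 1382 CPM there in flox against 1404 CPM in empty barcodes. The summed PSC markers were at 2149 CPM in flox tumor-like cells and 1370 CPM in the others, against 1916 and 1420 CPM in empty barcodes, and their part in the ratios of tumor-like cells was not tested. The kept cells shared 59 barcodes between libraries, 0.675% of the flox cells. The targeted gene was not lower where it was to be deleted. Slc16a1 stood at 25.5 CPM in flox PSC-like cells (57 UMIs) and at 35.6 CPM in those of the other library (113 UMIs), a ratio of 1.40 (1.01 to 1.96), and the ratio was 1.23 in tumor-like cells and 1.46 in macrophage/monocyte-like cells, while the other 4 classes held only 6 to 42 UMIs of it in a library and had intervals that included 1. Empty barcodes held 21.4 CPM of Slc16a1 in flox and 21.0 CPM in the other library. The paper reports MCT1 expression as lower in PSCs of the knockout mice in its own single-cell plots. Its evidence goes beyond these plots, with a drop of MCT1 by Western blot and PCR in PSCs isolated from knockout mice. It also describes the loss in pancreas sections stained for Collagen I together with MCT1. The kit reads the 3′ end, and which exons were floxed is not given in the sources used here. Whether these UMIs lie outside the deleted part was not tested. Heat shock and immediate early transcripts (7 heat shock genes with Jun, Fos and Egr1, of which 9 were measured in neutrophil-like cells) had a median ratio between 0.318 and 0.599 in the 7 classes. In each class 7 to 10 of them were lower by 1.5-fold or more in the library labelled PSCs-MCT1-/-, and 1 lay above 1 in T/NK-like cells, at 1.14. Acinar transcripts made up 345 CPM of the free RNA in flox, measured in barcodes of 10 to 100 UMIs, and 18300 CPM in the other library. With mitochondrial, ribosomal protein, acinar, heat shock and these immediate early genes left out of the totals, all 54 ratios of the measured genes were higher by a factor between 1.017 and 1.069, and the 17 ratios past 1.5-fold stayed past it with 0 added. With free RNA subtracted at the share set by the acinar genes, 16 of those 17 stayed past the fold and 8 others joined them.

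Levels are UMIs per 1000000 UMIs of a class (CPM). They are compared between classes and libraries and not between genes. Classes differed far more than libraries for Slc7a11, Hmox1 and the ferritins. The plot of levels by class shows each library beside its free RNA.

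**Figure D1:**
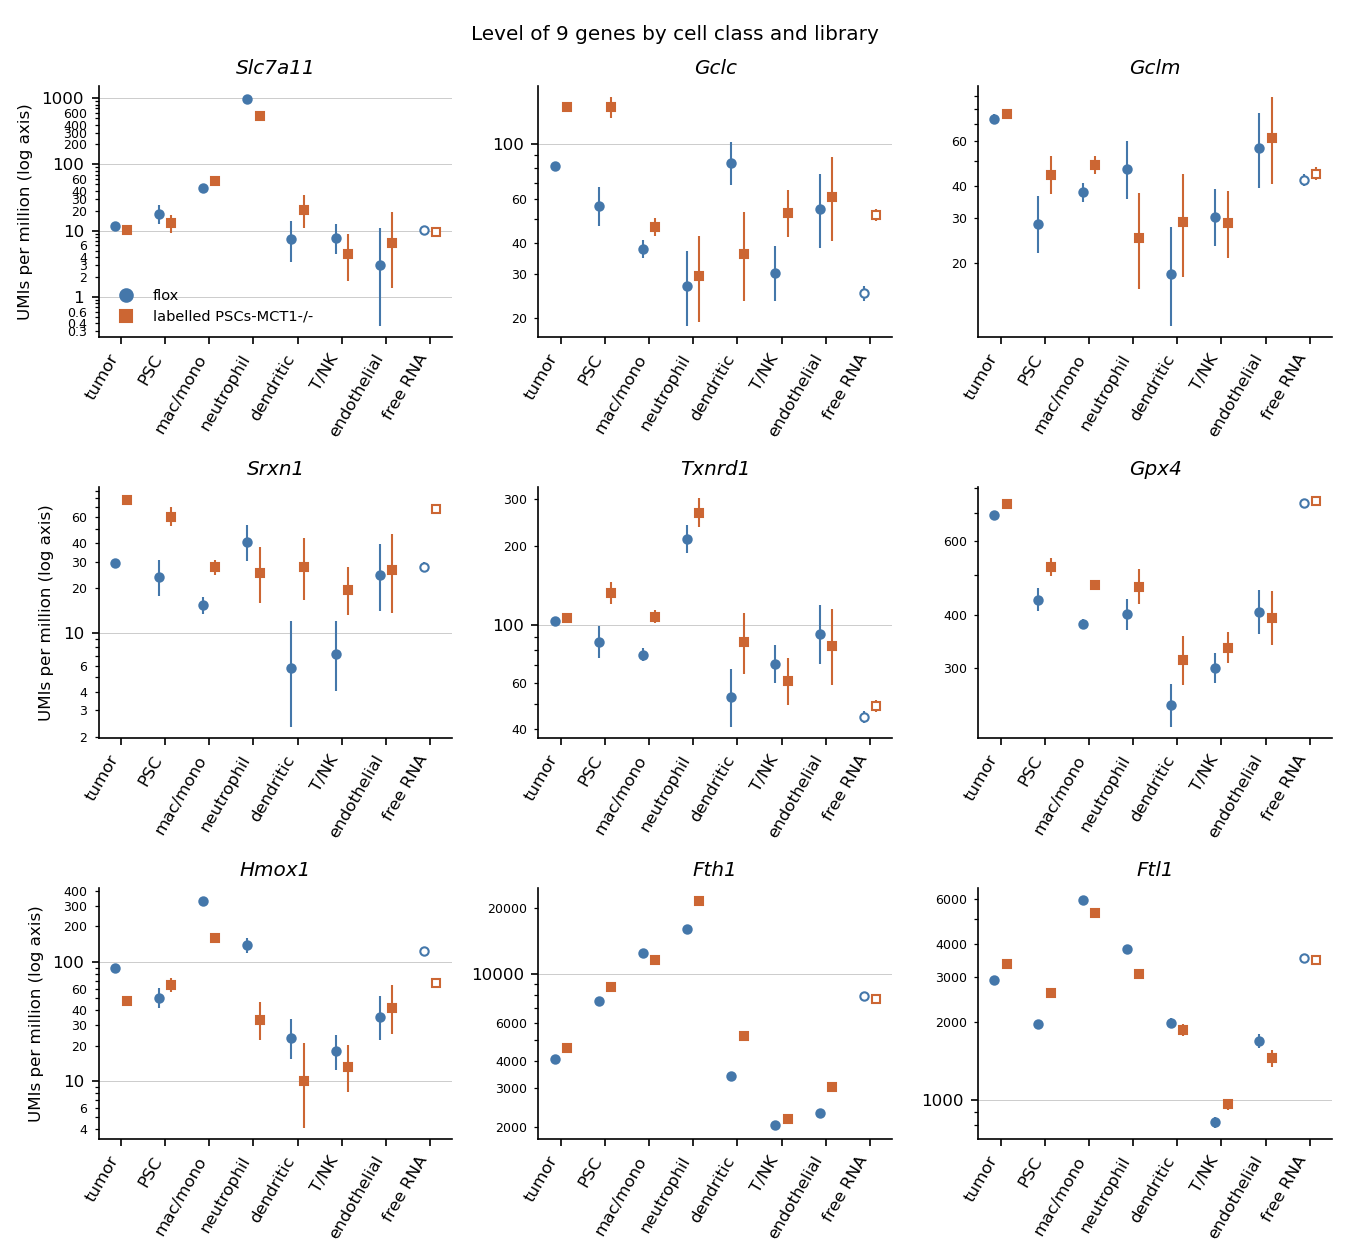
Level of 9 genes (CPM, log axis, each panel with its own range) in 7 cell classes of the flox library (circles) and the library labelled PSCs-MCT1-/- (squares), with counting intervals; open symbols are empty barcodes. Slc7a11 stood at 973 and 531 CPM in neutrophil-like cells and at 57.0 CPM or lower in every other class shown.

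Transcripts for cystine uptake were concentrated in neutrophil-like cells. Slc7a11, the transport subunit of the cystine and glutamate exchanger xCT, stood at 973 CPM (1269 UMIs) in flox neutrophil-like cells and at 531 CPM (487 UMIs) in those of the other library. Macrophage/monocyte-like cells came next, at 43.9 and 57.0 CPM. Tumor-like cells held 11.6 and 10.3 CPM, against 10.4 and 9.45 CPM in free RNA, so their level was close to that of empty barcodes. Neutrophil-like cells contributed 2.13% of the UMIs of flox cells and 51.8% of their Slc7a11 UMIs, and 1.13% and 26.0% in the other library. The signal came from many cells, although the 10% with the most held 44.4% of the flox UMIs and 51.5% of the others. With cells thinned to 1000 UMIs, 46.7% of 703 flox neutrophil-like cells (42.9 to 50.4) and 37.1% of 439 others (32.6 to 41.8) held a Slc7a11 UMI. Thinning left out 54 flox and 269 other cells of this class with fewer UMIs. Among T/NK-like cells, a reference with little of the gene here, although activated T cells are known to induce it, the shares were 0.198% of 506 flox cells and 0 of 444 others (upper bound 0.827%), also at 1000 UMIs per cell. Without thinning, 55.2% and 37.0% of neutrophil-like cells held a UMI, at median depths of 1471 and 1076 UMIs, and no cell held more than 15. Slc3a2, which encodes the partner chain of xCT, was not concentrated in the same way, with 304 and 203 CPM in neutrophil-like cells and 258 and 282 CPM in tumor-like cells.

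**Figure D2:**
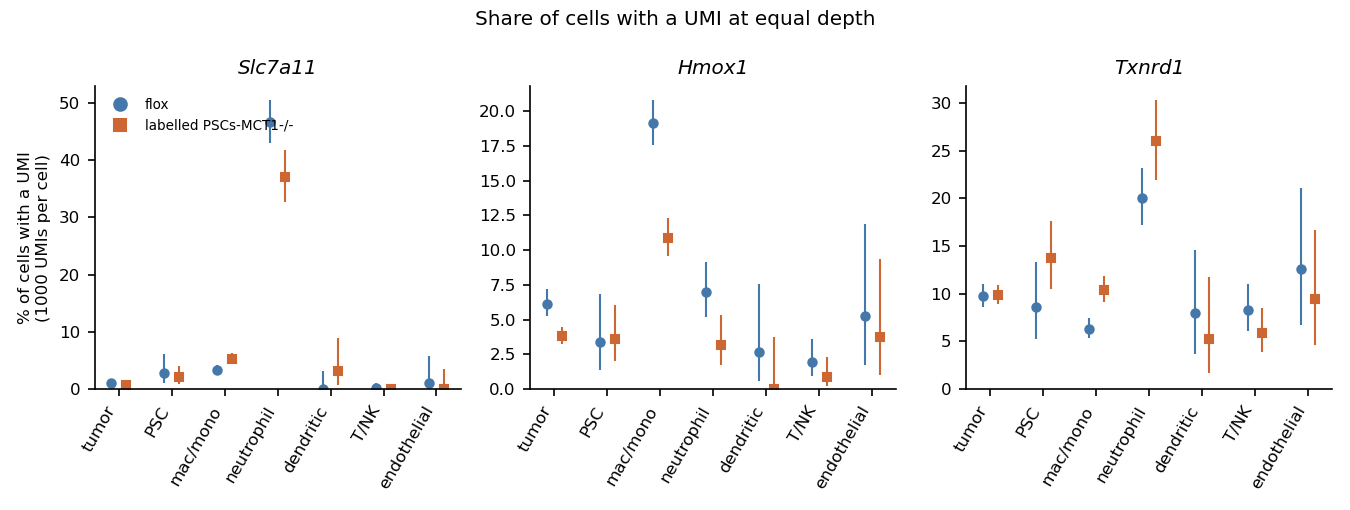
Share of cells with a UMI of Slc7a11, Hmox1 or Txnrd1 by class (per cent, cells thinned to 1000 UMIs; bars are exact binomial intervals), flox library as circles and library labelled PSCs-MCT1-/- as squares. Slc7a11 was found in 46.7% and 37.1% of neutrophil-like cells and Hmox1 in 19.1% and 10.9% of macrophage/monocyte-like cells.

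Among the 7 classes compared, Gclc and Gclm had their highest or next to highest level in tumor-like cells. Glutamate-cysteine ligase joins glutamate and cysteine in the limiting step of that synthesis, and Gclc and Gclm encode its catalytic and modifier subunits. Gclm stood at 73.4 and 76.7 CPM in tumor-like cells, the highest of the 7 classes in each library, although its interval overlapped that of endothelial-like cells (56.2 and 61.4 CPM). Gclc stood at 81.3 CPM in flox tumor-like cells and at 140 CPM in the others. In the flox library its level in dendritic-like cells, 83.9 CPM (68.3 to 102), was not separated from that in tumor-like cells. Of 101 Gclc UMIs in those 117 dendritic-like cells, 88.1% came from the 10% of cells with the most. In the library labelled PSCs-MCT1-/-, tumor-like and PSC-like cells both stood at 140 CPM and the other 5 of the 7 classes at 61.4 CPM or lower. Outside the 7 classes, duct and islet epithelium-like cells held more of both genes, 175 and 228 CPM of Gclc and 114 and 109.5 CPM of Gclm.

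The genes of thiol and peroxide repair split by class. Gpx4, which reduces lipid hydroperoxides, was highest in tumor-like cells in each library, at 691 and 735 CPM, and lowest in dendritic-like cells, at 245 and 314 CPM. Free RNA held 740 and 747 CPM of it, so every class lay below or near the empty barcodes. Txnrd1, the cytosolic thioredoxin reductase, was highest in neutrophil-like cells, at 212 and 267 CPM, and 20.1% and 26.0% of thinned neutrophil-like cells held a UMI of it. Its level in tumor-like cells was 103 and 106 CPM, and free RNA held 44.4 and 49.1 CPM. Srxn1, sulfiredoxin, reactivates overoxidised peroxiredoxins. It stood at 29.3 CPM in flox tumor-like cells and 77.4 CPM in the others, at 23.7 and 60.2 CPM in PSC-like cells and at 15.3 and 27.5 CPM in macrophage/monocyte-like cells, while free RNA held 27.8 and 68.1 CPM. Levels of Srxn1 outside tumor-like cells were thus at or below those of empty barcodes, with the exception of flox neutrophil-like cells at 40.6 CPM (30.4 to 53.2, 53 UMIs).

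Transcripts for heme breakdown and iron storage were highest in myeloid classes. Hmox1, heme oxygenase 1, which opens heme and frees its iron, stood at 328 CPM in flox macrophage/monocyte-like cells and at 159 CPM in those of the other library, the highest class in each. Tumor-like cells held 89.7 and 47.0 CPM, and free RNA 125 and 66.8 CPM. The UMIs were unevenly spread, since the 10% of macrophage/monocyte-like cells with the most held 65.9% and 72.2% of them, and a single flox cell held 343. Fth1, the ferritin heavy chain that oxidises iron for storage, was highest in neutrophil-like cells, at 16040 and 21580 CPM. Macrophage/monocyte-like cells followed at 12490 and 11610 CPM, and then PSC-like cells at 7524 and 8694 CPM. These classes kept that order in both libraries and no intervals overlapped. Tumor-like cells, at 4083 and 4575 CPM, lay above dendritic-like cells in flox (3412 CPM) and below them in the other library (5225 CPM). Free RNA held 7903 and 7713 CPM of Fth1, so PSC-like cells lay near the empty barcodes and tumor-like cells below them. Ftl1, the light chain, was highest in macrophage/monocyte-like cells, at 5940 and 5302 CPM, and lowest in T/NK-like cells, at 819 and 962 CPM. For this chain free RNA held 3537 and 3479 CPM. The processed copy Ftl1-ps1 held 581 UMIs against 509791 of Ftl1. Reads of further unlisted copies cannot be told apart from those of either ferritin gene.

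Nqo1, a quinone reductase and a standard NRF2 target, was close to absent. It had 1 UMI in 34011928 in flox tumor-like cells and 5 in 54523012 in the others. Macrophage/monocyte-like cells held 5 and 3 UMIs, and PSC-like cells 4 and 15, or 1.79 and 4.73 CPM. Over all kept cells the counts were 56 and 27. Of the 56 flox UMIs, 42 lay in the duct and islet epithelium-like class, at 160 CPM, and they came from 3 of its 34 cells (8.82%, 1.86 to 23.7), with up to 20 in a cell. None of the 62 cells of that class in the other library held any, where 3 counts would be 9.12 CPM. This class held different cells in the 2 libraries. The flox cells were led by Tff1 (55580 CPM, against 0 UMIs in the other library) and Gkn1, stomach surface genes, and had 0 UMIs of Ins1, Ins2 and Gcg. The others held 16860 CPM of Ins2, a beta cell hormone. No comparison between libraries was made for it.

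Tumor-like and macrophage/monocyte-like cells, the largest named classes, each had the higher level of 4 genes. A gene was counted where it was 1.5-fold or more apart in the same direction in each library. Srxn1, Gclm, Gclc and Gpx4 were higher in tumor-like cells, 4 of 9 genes measured, against 31.2% of 12450 genes. Hmox1, Slc7a11, Fth1 and Ftl1 were higher in macrophage/monocyte-like cells, again 4 of 9, against 17.7% of genes. Gclc was 2.15-fold (1.97 to 2.36) higher in tumor-like cells in flox and 3.02-fold (2.77 to 3.29) in the other library. Hmox1 was 3.66-fold and 3.39-fold higher in macrophage/monocyte-like cells, Slc7a11 3.78-fold and 5.51-fold, Fth1 3.06-fold and 2.54-fold, and Ftl1 2.04-fold and 1.58-fold. Slc3a2 and Gss, the second enzyme of glutathione synthesis, were not past the fold in both libraries on either side. Txnrd1 was on neither, at 103 and 76.8 CPM in flox and 106 and 108 CPM in the other library.

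Between libraries, tumor-like cells differed in Srxn1, Gclc and Hmox1. Ratios are given as the library labelled PSCs-MCT1-/- over flox. Srxn1 went from 29.3 to 77.4 CPM, a ratio of 2.64 (2.47 to 2.84), and 0.808% of all 13236 genes measured in that class had a higher ratio. For Gclc the values were 81.3 and 140 CPM, a ratio of 1.72 (1.65 to 1.80), with 2.98% of genes above it. Hmox1 stood at 89.7 and 47.0 CPM, a ratio of 0.525 (0.498 to 0.553), with 4.08% of genes below it. Past 1.5-fold, 2 of 9 measured genes were higher and 1 lower, where the shares of all genes were 5.55% and 8.58%. The median ratio of the 9 was 1.06, against 1.01 over all genes. The other 6 had ratios between 0.891 (Slc7a11) and 1.15 (Ftl1), and their partners in function were among them, with Gclm at 1.05 (0.995 to 1.10), Txnrd1 at 1.03 (0.989 to 1.08) and Gpx4 at 1.06 (1.05 to 1.08). Free RNA had ratios of 2.45 for Srxn1, 2.06 for Gclc and 0.534 for Hmox1. The summed macrophage/monocyte markers in tumor-like cells stood at 624 CPM in flox and 336 CPM in the other library, and their part in the ratio of Hmox1 was not tested. The ratio of Hmox1 was 0.868 without cells that held markers of another class (127 flox cells left) and 0.691 with no upper limit on genes and cells classed singly by a marker rule, so it was then no longer past the fold. Without cells that held markers of another class Slc7a11 was at 0.394, on fewer than 50 UMIs. The ratios of Srxn1 ranged from 1.89 to 2.88 over the alternatives tried and those of Gclc from 1.60 to 1.79.

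**Figure D3:**
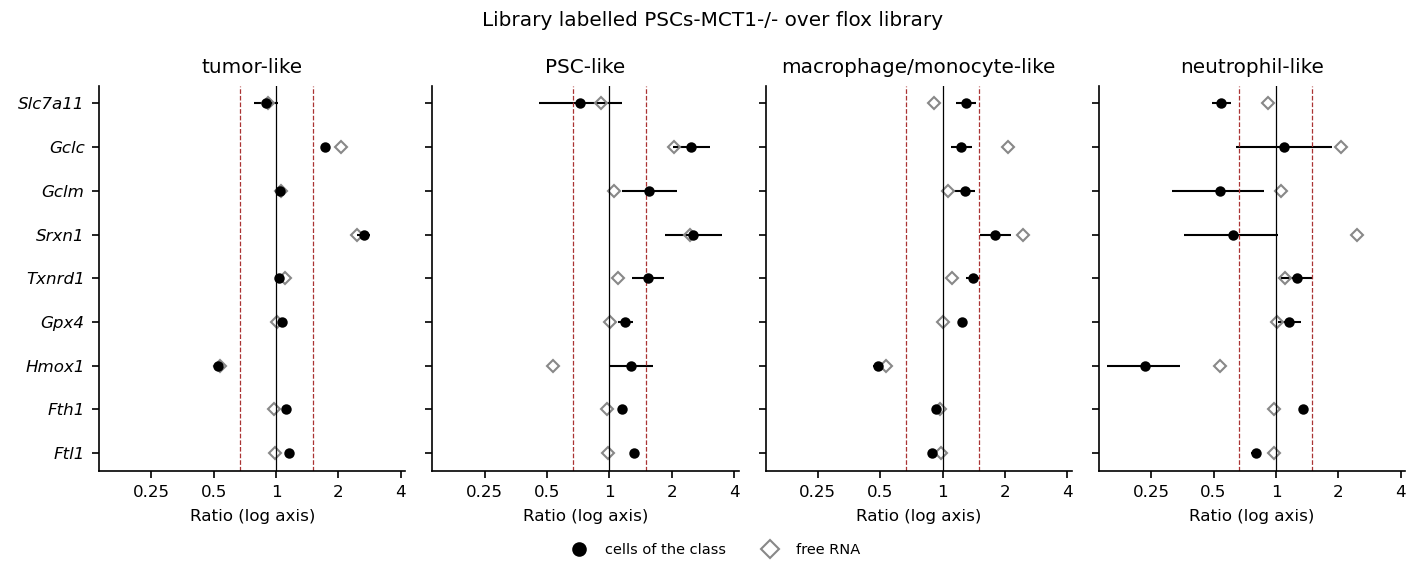
Ratio of each gene's level, library labelled PSCs-MCT1-/- over flox (log axis), in 4 classes (filled circles with counting intervals) and in free RNA (open diamonds); dashed lines mark 1.5-fold in either direction. Srxn1 and Gclc lay at 2.64 and 1.72 in tumor-like cells, and Hmox1 at 0.525 in tumor-like and 0.485 in macrophage/monocyte-like cells.

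PSC-like cells, the intended site of the deletion, had 4 of 9 measured genes higher by 1.5-fold or more and 0 lower, where 9.97% and 11.2% of 8596 genes were. Their median ratio was 1.32, against 0.979 over all genes. Srxn1 stood at 23.7 and 60.2 CPM, a ratio of 2.54 (1.86 to 3.51). Gclc went from 56.3 to 140 CPM, a ratio of 2.48 (2.03 to 3.05). Gclm and Txnrd1 lay just past the fold, at 1.55 (1.15 to 2.12) and 1.53 (1.29 to 1.83). Fth1 at 1.16, Ftl1 at 1.32 and Gpx4 at 1.19 lay under it, and Slc7a11 was at 0.722 (0.456 to 1.15). Free RNA had ratios of 2.45 for Srxn1, 2.06 for Gclc, 1.06 for Gclm and 1.10 for Txnrd1. Against its level in the same library, PSC-like cells held 0.853 and 0.884 times as much Srxn1. For Gclc this was 2.23 and 2.69 times, for Gclm 0.675 and 0.991 times and for Txnrd1 1.94 and 2.70 times. Hmox1, lower in tumor-like and macrophage/monocyte-like cells, had 50.5 and 64.6 CPM here, a ratio of 1.28 (1.01 to 1.62). In these cells the summed PSC markers stood at 25480 CPM in flox and 18770 CPM in the other library, those of plasma cells at 71.5 and 515 CPM, those of B cells at 4.47 and 143 CPM, those of duct and islet epithelium at 368 and 35.0 CPM and the acinar transcripts at 114 and 2092 CPM, and the part of the cell type markers in the ratios was not tested. The counts were small, with 53 and 191 UMIs of Srxn1 and 64 and 141 of Gclm. When single cells were classed by a marker rule, the class held 1180 flox and 1051 other cells, against 232 and 421 before. The ratio of Gclm was then 0.984, that of Txnrd1 1.13 and that of Hmox1 0.669. With free RNA subtracted, Hmox1 was at 4.81, Ftl1 at 2.13 and Gpx4 at 1.75, all past the fold.

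In macrophage/monocyte-like cells Hmox1 was lower and Srxn1 higher in the library labelled PSCs-MCT1-/-. Hmox1 stood at 328 and 159 CPM, a ratio of 0.485 (0.460 to 0.511), with 2.68% of 11425 genes below it. Leaving out the cell with the most UMIs in each library gave 0.492. Srxn1, at 15.3 and 27.5 CPM, had a ratio of 1.80 (1.51 to 2.13) and was the only gene higher by 1.5-fold, 1 of 9 against 9.07% of genes, and Hmox1 the only lower, 1 of 9 against 9.0%. Without the cells most like doublets Srxn1 was at 1.40 and no longer past the fold. Over all alternatives tried its ratio ranged from 1.226 to 2.645. Txnrd1 at 1.40 (1.29 to 1.52), Slc7a11 at 1.30 (1.17 to 1.45), Gclm at 1.28, Gpx4 at 1.24 and Gclc at 1.23 all had intervals above 1. Gclc did not keep that direction, with 0.894 without the cells most like doublets. The median ratio of the 9 was 1.24, against 1.02 over all genes. Both ferritin chains had intervals below 1, Fth1 at 0.929 (0.923 to 0.936) and Ftl1 at 0.893 (0.884 to 0.902). Fth1 did not keep that side, with 1.05 without cells that held markers of another class and means of 11.6 and 12.04 UMIs per cell at 1000 UMIs, and Ftl1 was at 1.02 without the cells with markers of another class.

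Neutrophil-like cells had ratios in both directions, with intervals above 1 for 3 genes and below 1 for 4. The share of all genes with such intervals was not computed. Past 1.5-fold, 4 of 9 were lower and 0 higher, against 10.4% and 14.3% of 4913 genes, and the median ratio was 0.797 against 1.08 over all genes. Slc7a11 stood at 973 and 531 CPM, a ratio of 0.546 (0.491 to 0.606), in the class where it was most abundant. The mean per thinned cell was 1.04 UMIs in flox and 0.652 UMIs in the other library. The ratio was 0.916 without cells that held markers of another class, which left 78 flox cells. Hmox1, at 140 and 32.7 CPM, had a ratio of 0.234 (0.154 to 0.346), but 87 of its 182 flox UMIs came from a single cell, and without the cell with the most UMIs in each library the ratio was 0.434. Gclm had 61 and 23 UMIs, a ratio of 0.536 (0.317 to 0.879). For Srxn1, with 53 and 23 UMIs and a ratio of 0.617, the interval reached 1.02. Fth1 went the other way, from 16040 to 21580 CPM, a ratio of 1.35 (1.32 to 1.37), and Ftl1 from 3839 to 3060 CPM, a ratio of 0.797 (0.761 to 0.835), so the chains lay on opposite sides of 1. This was not seen in the deeper cells, where the means at 2000 UMIs were 29.3 and 28.8 UMIs of Fth1 and 6.63 and 6.70 UMIs of Ftl1 (97 and 37 cells). Txnrd1 at 1.26 and Gpx4 at 1.16 (1.02 to 1.32) had intervals above 1, and Gclc was at 1.10. None of these 3 kept its side of 1, with Txnrd1 at 0.687 and Gpx4 at 0.901 without cells that held markers of another class, and Gclc between 0.718 and 1.75 over the alternatives. Acinar transcripts made up 199 CPM of flox neutrophil-like cells and 6872 CPM of the others, the highest of the 7 classes. By these transcripts, free RNA would be 57.8% of the UMIs of flox neutrophil-like cells and 37.5% of the others. Against the level in free RNA of the same library, Hmox1 stood at 1.12 times in flox and 0.490 times in the other library, Gclm at 1.10 and 0.559 times and Srxn1 at 1.46 and 0.369 times, while Slc7a11 stood at 93.7 and 56.2 times. The 3 genes first named thus lay below free RNA in the library labelled PSCs-MCT1-/-. With free RNA subtracted, Hmox1 was at a ratio of 0.103 and Gclm at 0.337, and no UMIs of Srxn1 were left in the latter library.

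The smaller classes gave fewer measured genes. Dendritic-like cells had 2 of 5 higher (Txnrd1 at 1.61 and Fth1 at 1.53) and 1 lower (Gclc at 0.433, 0.267 to 0.676), against 9.14% and 12.9% of genes. The Gclc value rested on few cells, as given above, and was 1.40 when single cells were classed by the marker rule. Neither higher call held under every alternative, since Txnrd1 fell to 1.32, while Fth1 lay between 1.32 and 4.12. In dendritic-like cells the summed tumor markers stood at 141 CPM in flox and 444 CPM in the other library. Those of T/NK cells were at 123 and 10.2 CPM and the acinar transcripts at 112 and 1604 CPM. The part of the cell type markers in the ratios was not tested. T/NK-like cells had 1 of 7 higher (Gclc, 30.4 and 53.1 CPM, a ratio of 1.75, 1.25 to 2.46) and 0 lower, against 6.92% and 9.52%. Gclc was at 1.43, under the fold, with no upper limit on genes and the marker rule. Free RNA held 25.2 and 52.0 CPM of Gclc, a ratio of 2.06. Endothelial-like cells had 0 of 6 in either direction, against 7.26% and 14.1%. Over the 7 classes Gpx4, the central ferroptosis gene, ranged from 0.967 to 1.28 and was past the fold in none of them. With free RNA subtracted, however, its ratio was 1.75 in PSC-like, 2.47 in macrophage/monocyte-like, 9.56 in T/NK-like and 42.6 in dendritic-like cells. Each of these classes held less of it per UMI than the empty barcodes.

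**Figure D4:**
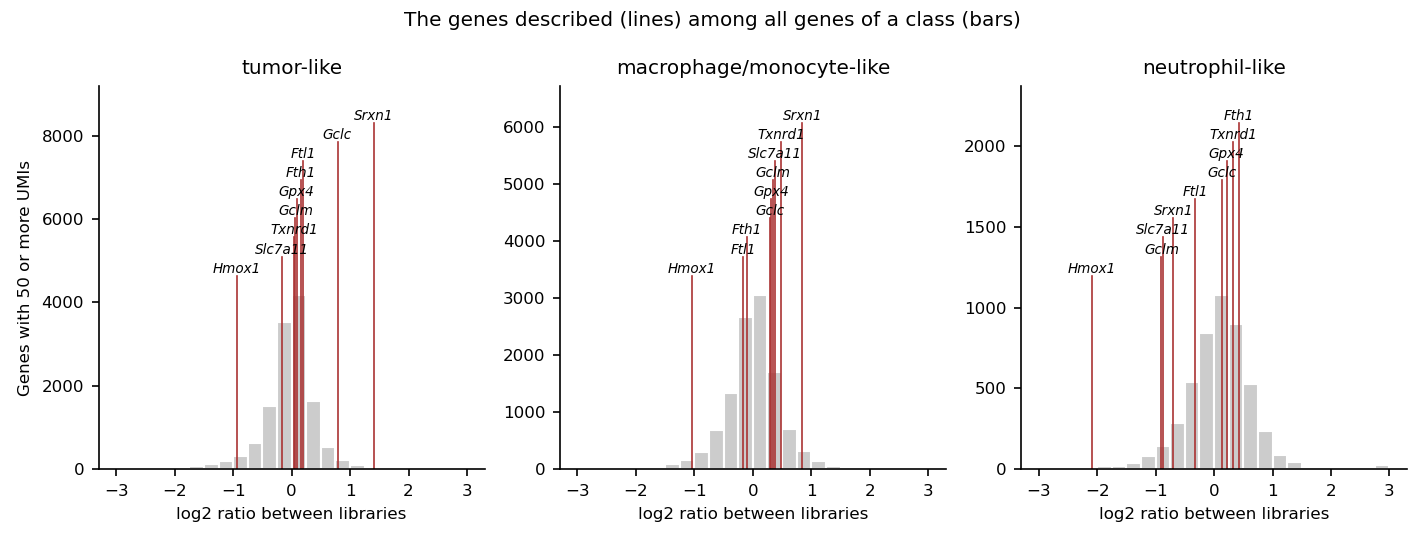
Number of genes (bars) by log2 ratio between libraries, for genes with 50 or more UMIs in tumor-like, macrophage/monocyte-like and neutrophil-like cells; genes beyond 3 in either direction are in the outermost bars, and lines of arbitrary height mark the named genes. In tumor-like cells Srxn1 lay at 1.40 and Hmox1 at -0.93 on this scale, with the other genes but Gclc near 0.

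Within tumor-like cells the direction of these differences was the same in each cluster. Srxn1 had a ratio above 1 in 6 of 6 clusters, from 1.47 in the cluster led by Krt19 and Msln to 4.67 in that led by Ecrg4 and Tnc, where it stood at 32.1 and 150 CPM. The cells of that cluster had a median depth of 0.525 times that of all cells of their library in flox and 2.43 times in the other library. It was high also in the cluster led by Lif and Cxcl1, an inflammatory state, at 54.6 and 135 CPM, and lowest in cycling cells, led by Ube2c, at 13.0 and 30.2 CPM. Gclc had ratios from 1.30 to 2.36 in 6 of 6 clusters. Hmox1 was below 1 in 6 of 6, from 0.311 in the cluster led by Cxcl10 to 0.871 in that led by Lif, where its level was 98.6 and 85.9 CPM. Gpx4 ranged only from 0.979 to 1.07, and was highest in cycling cells, at 846 and 828 CPM. Across the 12 values of 6 clusters in 2 libraries, which share libraries and free RNA, the highest correlation among the 10 genes was that of Gclc with Srxn1 (Pearson 0.803) and the lowest that of Gpx4 with Txnrd1 (-0.636).

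Among macrophage/monocyte-like clusters, the cluster led by Arg1, which also carried Il1a, Tnf and Rsad2 among its leading genes, held 498 and 308 CPM of Hmox1, against 299 and 121 CPM in the cluster led by Apoe and the C1q genes. Slc7a11 stood at 99.96 and 145 CPM in the Arg1 cluster and at 16.4 and 17.9 CPM in the Apoe cluster. Txnrd1, at 114 and 162 CPM, Fth1, at 14700 and 12930 CPM, and Ftl1, at 7297 and 6116 CPM, were also highest in the Arg1 cluster in each library. The lower Hmox1 in the library labelled PSCs-MCT1-/- was seen in 4 of 4 clusters, with ratios from 0.311 to 0.618. Srxn1 was above 1 in 3 of 4, up to 2.42 in the cluster led by Acp5, which held 25 and 123 of its UMIs, and at 0.501 (0.212 to 1.06) in the cycling cluster. The clusters were made without these 10 genes, the pathway lists and the heat shock and immediate early genes among their features.

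**Figure D5:**
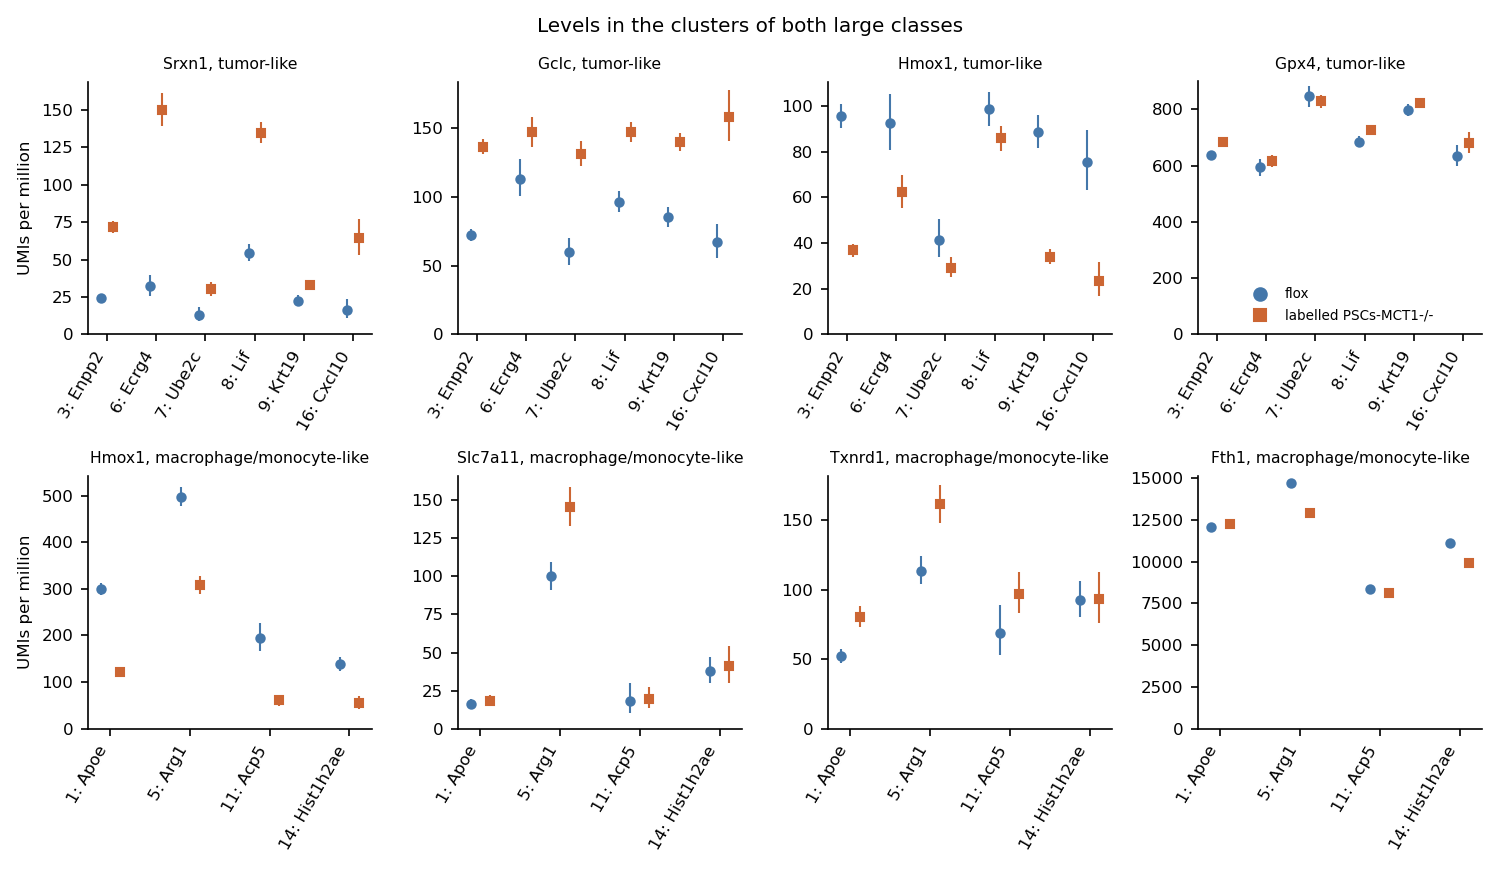
Levels (CPM, axes from 0) in the 6 clusters of tumor-like cells (top) and the 4 of macrophage/monocyte-like cells (bottom), each named by number and leading gene, flox library as circles and library labelled PSCs-MCT1-/- as squares, with counting intervals. Srxn1 and Gclc lay higher and Hmox1 lower in the latter library in every tumor-like cluster, and the Arg1 cluster was the highest for the 4 genes in the bottom row.

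The regulators were close to level in tumor-like cells. Nfe2l2 stood at 234 and 238 CPM in tumor-like cells, a ratio of 1.02 (0.988 to 1.05), and at 594 and 526 CPM in macrophage/monocyte-like cells, and in neutrophil-like cells it was higher still, at 715 and 611 CPM. Keap1, the inhibitor, had 32.6 and 30.6 CPM in tumor-like cells. Bach1, the repressor, was level there, at 34.6 and 34.8 CPM, at a ratio of 1.01. Its ratio was 1.43 (1.32 to 1.54) in macrophage/monocyte-like cells, where it stood at 80.3 and 114 CPM. PSC-like cells held 66.6 and 111 CPM, for a ratio of 1.66 (1.37 to 2.02). Of 9 regulators, 0 were past 1.5-fold in tumor-like cells (5.55% of all genes higher and 8.58% lower) or macrophage/monocyte-like cells (9.07% and 9.0%), while in PSC-like cells 2 of 9 were higher, Bach1 and Mafk at 1.76, against 9.97% of genes. The extremes in tumor-like cells were Mafk, a small MAF partner, at 1.29, and Nfe2l1, a related factor, at 0.778.

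Other NRF2-linked genes in tumor-like cells went in both directions. Of 29 measured thiol and antioxidant genes, 1 was higher, the glutathione transferase Gsta4 (44.6 and 70.9 CPM, a ratio of 1.59), and 0 lower, with a median ratio of 1.09 against 1.01 over all genes, where 5.55% of all genes in that class were higher and 8.58% lower. Sod3, the extracellular superoxide dismutase, was the lowest at 0.707. Of 13 genes of NADPH supply and carbonyl reduction, 1 was higher, Idh1 at 1.52, and 2 lower, the carbonyl reductase Cbr1 (229 and 130 CPM, a ratio of 0.570, 0.552 to 0.589) and malic enzyme Me1 (80.7 and 50.2 CPM, a ratio of 0.622), with a median ratio of 1.23. In macrophage/monocyte-like cells 7 of 28 thiol and antioxidant genes were higher and 1 lower, against 9.07% and 9.0% of all genes, with a median ratio of 1.06 against 1.02. Gsta4 was at 2.26 and Gpx3, a secreted peroxidase, at 2.02 there, and the gene lower by 1.5-fold was Glrx, a glutaredoxin, at 0.632.

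Of 21 iron handling genes measured in tumor-like cells, 2 were higher and 2 lower, against 5.55% and 8.58% of all genes, with a median ratio of 0.995. The hemoglobin binder Hp went from 3.71 to 10.3 CPM, a ratio of 2.79 (2.29 to 3.41), and the siderophore binder Lcn2 from 21.9 to 38.2 CPM, a ratio of 1.74. The ferroxidase Heph was at 0.602 and Slc11a1, a metal transporter of phagocytes, at 0.443. Slc11a1 stood at only 2.94 and 1.30 CPM in tumor-like cells, against 136 and 123 CPM in macrophage/monocyte-like cells. The part of macrophage/monocyte transcripts in its ratio was not tested. In macrophage/monocyte-like cells 5 of 23 were higher (Slc39a14, Cp, Lcn2, Cd163 and Hp) and 0 lower, against 9.07% and 9.0% of all genes, with Cd163, the scavenger receptor for hemoglobin, at 3.41 and 12.7 CPM, a ratio of 3.72 (2.71 to 5.19), and Hp at 2.70. Tfrc, the transferrin receptor, stood at 8.94 and 12.01 CPM in tumor-like cells, against 7.04 and 8.07 CPM in free RNA. The iron exporter Slc40a1 had 33 and 13 UMIs in macrophage/monocyte-like cells, or 2.12 and 1.09 CPM. Slc11a1, Slc39a14, Cp, Tfrc and Slc40a1 were named after their values were seen.

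Of 31 ferroptosis genes outside the set, 0 were higher and 2 lower in tumor-like cells, against 5.55% and 8.58% of all genes, with a median ratio of 0.963. In macrophage/monocyte-like cells 4 of 30 were higher (Alox5, Scd1, Scd2 and Fads2) and 4 lower (Sat1, Hspb1, Atf3 and Ddit3), against 9.07% and 9.0%, with a median of 1.05. The lowest in each were Hspb1, a small heat shock protein, at 0.490 and 0.169, and the stress factor Atf3, at 0.612 and 0.446. The highest in tumor-like cells was Sesn2 at 1.49, and in macrophage/monocyte-like cells the lipoxygenase Alox5 at 3.52 (2.77 and 9.75 CPM, 43 and 116 UMIs). Among genes with at least 200 UMIs there, it was the desaturase Scd2 at 1.87 (25.4 and 47.4 CPM). Por, an electron donor that can feed lipid peroxidation, was at 1.34 there.

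Over 14 points, 7 classes in each library, the genes most like each of the 10 by log2(CPM + 1) were found among 11012 genes with at least 500 UMIs. Slc7a11 was closest to Arg2, Msrb1 and Trem3 (Pearson 0.976, 0.966 and 0.965), and Txnrd1 to Map1lc3b (0.940). Fth1 was closest to Nfe2l2 (0.953). For Gpx4 the nearest gene was Acsl3 (0.947), for Ftl1 Irf2bp2 (0.947), for Gclm Grpr (0.906), for Srxn1 Gm3448 (0.899) followed by Mafk (0.884), for Gclc Pigyl (0.879), for Hmox1 Sgpl1 (0.877) and for Nqo1 Postn (0.830). The pattern of Nqo1 rested on few UMIs, with 4 and 15 in PSC-like cells, the highest of the 7 classes for it. The points share library, depth and free RNA, and these values describe the pattern over classes alone.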

How the data were processed

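Single-cell RNA-seq was made from 1 flox tumor library and 1 library labelled PSCs-MCT1-/-. Per the labels, a SeekOne MM 3′ kit was used, while the methods name other kits. Reads had been trimmed by Fastp before SeekOneTools made the matrices. The deposited matrices hold raw UMI counts per gene and barcode for all barcodes, not normalised. The methods name a human build although the gene IDs are mouse, so the build is not known here. The submitters used Seurat 4.0.0.

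Cells were kept at 500 UMIs, 200 to 5000 genes and at most 8% mitochondrial UMIs, which left 8739 and 11689 cells, at median depths of 4069 and 3706 UMIs. Libraries were log-normalised, integrated on 2000 genes and 20 dimensions and clustered at a resolution of 0.8 (Seurat 5.3.0, R 4.3.3), without the 10 genes, the pathway lists and heat shock and immediate early genes. Clusters were named where at least 3 fixed markers were detected in 10% of cells and were 1.5-fold above the median cluster. These thresholds were set after the clusters were seen. Doublets were kept, and an alternative left out the 8% of cells most like simulated doublets. Raw counts were summed per class and library and divided by the class total (CPM), with exact Poisson intervals, exact binomial intervals of shares, and conditional exact intervals of ratios (scipy 1.17.1). Genes needed 50 UMIs and classes 50 cells in each library to be compared. With 1 library per group there is no test, and a gene was counted past 1.5-fold. On simulated Poisson counts of 13132 genes in tumor-like cells, 95.2% of intervals held the true ratio. Poisson counts are the model behind the intervals. The simulation thus cannot show how the intervals hold where the UMIs of a gene gather in few cells. The genes named outside the 10 were those at either end of each fixed list with at least 200 UMIs, with Nfe2l2, Keap1, Bach1 and Slc16a1 in any case, while Slc3a2, Gss, Alox5, Scd1, Fads2, Sat1, Ddit3, the iron genes said so in the text and the leading genes of clusters were added after their values were seen. The 10 genes and the lists were chosen with earlier results of these data known. Alternatives covered the cell filters, class naming, doublets, free RNA, the scale and the thresholds.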

Additional observations from a re-analysis of the deposited data

Results flagged for a closer look

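Several ratios of the library labelled PSCs-MCT1-/- over flox lay on opposite sides of 1 in different classes, with intervals that did not include 1. Hmox1 was at 1.28 in PSC-like and 0.234 in neutrophil-like cells. Gclm was at 1.55 and 0.536 in the same classes. Gclc was at 2.48 in PSC-like and 0.433 in dendritic-like cells, Slc7a11 at 1.30 in macrophage/monocyte-like and 0.546 in neutrophil-like cells, and Fth1 at 1.53 in dendritic-like and 0.929 in macrophage/monocyte-like cells, where it turned to 1.05 without cells that held markers of another class. With single cells classed by a marker rule, Hmox1 (0.669) and Gclm (0.984) in PSC-like and Gclc (1.40) in dendritic-like cells also lay on the other side of 1, and without the cell with the most UMIs in each library Hmox1 in neutrophil-like cells was at 0.434. With 1 library per genotype these differences between classes were not tested. Outside the classes compared, Nqo1 reached 160 CPM in the flox duct and islet epithelium-like cells, from 3 cells.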

How the results depend on the processing

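Of 624 ratios recomputed under alternatives, 469 moved by less than their interval, 152 by more and 3 that had been past 1.5-fold changed side. In all 53 lay on the other side of 1, and of 197 that had been past the fold 171 stayed past it in the same direction. The 3 were Gclc in dendritic-like cells, at 1.40 with the marker rule per cell and 1.34 when the upper gene limit was dropped too, and Gclm in PSC-like cells, at 0.984 with the marker rule. The counts past 1.5-fold also changed. Except at a fold of 2 for tumor-like and macrophage/monocyte-like cells, the share of all genes under these settings was not computed. The counts without a share describe the set alone. In tumor-like cells, 0 genes were lower with no upper gene limit and the marker rule. Without cells holding markers of another class, and among genes that still had 50 UMIs, 1 was higher and 0 lower in tumor-like cells and 3 were higher in macrophage/monocyte-like cells. In the latter class, 0 were higher without likely doublets, 2 with free RNA subtracted and 2 by the mean of CPM per cell. Over the 7 classes, 16 were higher with free RNA subtracted and 4 lower at a minimum of 200 UMIs. At a fold of 2, 1 was higher and 0 lower in tumor-like cells (1.72% and 3.5% of all genes), 0 were higher and 1 lower in macrophage/monocyte-like cells (2.74% and 3.01%), and 3 were higher and 3 lower over the 7 classes. Between these classes, 1 was then higher in tumor-like cells (20.1% of all genes) and 3 in macrophage/monocyte-like cells (13.1%). The share of flox neutrophil-like cells with Slc7a11 was 61.9% at 2000 UMIs and 55.2% without thinning. For Hmox1 in macrophage/monocyte-like cells it was 30.3% and 48.2% in flox and 18.1% and 31.6% in the other library. Beyond fewer or deeper cells, the cause was not tested. Leaving out the cell with the most UMIs was chosen after seeing the data. No paired analysis was possible because each genotype has 1 library.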
